A study of Mus musculus with 28 samples.

Results

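Liver gene expression of male C57BL/6 mice at 24 months was set against that at 18 months, the last step of a series that followed the liver through mouse life. The members of the comparison were the 4 arrays labelled 24 months and the 4 labelled 18 months, 8 of the 28 arrays of the series, and every gene with a probe set of its own symbol, 18193 genes in all. Mice of 6 and 12 months, 4 of each, were normalized and fitted together with them, and the step from 6 to 12 months served as an earlier span of equal length that shares no animal with the last one. The remaining arrays of the series came from younger C3H mice and were not compared here.

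All 16 mice were control males, obtained from a breeder near the stated age, held on a cycle of light and dark hours and killed with CO2. The source label writes the strain as C57Bl6/J. The 18 month animals carried the numbers 4, 9, 14 and 19 and the 24 month animals the numbers 25, 29, 33 and 34, so that the oldest group was numbered apart from the younger ones, whose numbers ran up to 21. The labels say that pieces of the left and median lobes were fixed for histology and the rest of each liver was frozen for RNA. One array was made per animal from whole liver, so a lower signal may mean fewer cells of a type or less RNA per cell, and these cannot be told apart. Neither the hour of killing nor the array date was given in the sources used here.

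The liver is built mainly of hepatocytes, which make the plasma proteins, handle fat, sugar and bile acids, and clear foreign compounds through oxidizing, conjugating and exporting proteins. Late in life the mouse liver is known to gather immune cells, and many hepatic genes follow the hour of the day through the circadian clock or the sex of the animal through growth hormone. What the last months add to earlier ageing is the question this comparison addresses.

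The hepatocyte genes Alb, Apoa1, Ttr, Cps1, Ahsg and Apoc3 were all among the 60 brightest genes. Xist, which is transcribed in females, did not exceed the background bound on any of the 8 arrays, while Uty, Kdm5d and Eif2s3y of the Y chromosome lay above it on all of them. The bound was an intensity of 52.6, or 6.10 on the log2(intensity + 16) scale used for every level below. Before normalization the arrays of the 2 groups differed in brightness: mean intensity was 214.3 to 258.4 at 18 months and 275.2 to 295.3 at 24 months, against 172.9 to 289.2 at the younger ages. The ratio of the 3 prime to the 5 prime control probe set of Gapdh was 0.850 to 0.896 at 18 months and 0.824 to 0.846 at 24 months. Neither range overlapped, so age, brightness and this measure of RNA or labelling quality cannot be told apart in any difference described here. Mean correlation with the other arrays of the group was 0.981 to 0.985 at 18 months and 0.977 to 0.986 at 24 months, and no 2 arrays held identical values.

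No gene passed the test between 24 and 18 months. By limma with Benjamini-Hochberg adjustment, 0 of 18193 genes had an adjusted p under 0.05 (0% called in either direction), and the lowest adjusted p was 0.151. At an unadjusted p under 0.05 there were 1733 genes (9.53%), 710 with a higher level at 24 months (3.9%) and 1023 with a lower level (5.62%). The values of the 4 old animals lay wholly above those of the 4 younger ones for 391 genes (2.15%) and wholly below for 617 (3.39%). The difference was above 0 for 8095 genes (44.5%) and below 0 for 9196 (50.5%). The median difference over all genes was -0.0021 on the log2 scale, with a median standard error of 0.143, and 87 genes differed by 2-fold or more, 45 higher and 42 lower. The fit of the 18 and 24 month arrays alone called 2 genes, Ece1 and Proz, both higher with an adjusted p of 0.0392. Weighting each array by its spread about its age group, which gave animal 25 the least weight, called Wdr55 (lower, adjusted p = 0.00496). Testing every probe set apart called 1 of Ndfip1 (lower, adjusted p = 0.0491). The p-values measure only the spread between these animals, and 4 arrays a group limit the precision. In the rest of the text a gene is given with its values, and no single gene difference between 24 and 18 months passed the adjusted threshold.

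**Figure D1:**
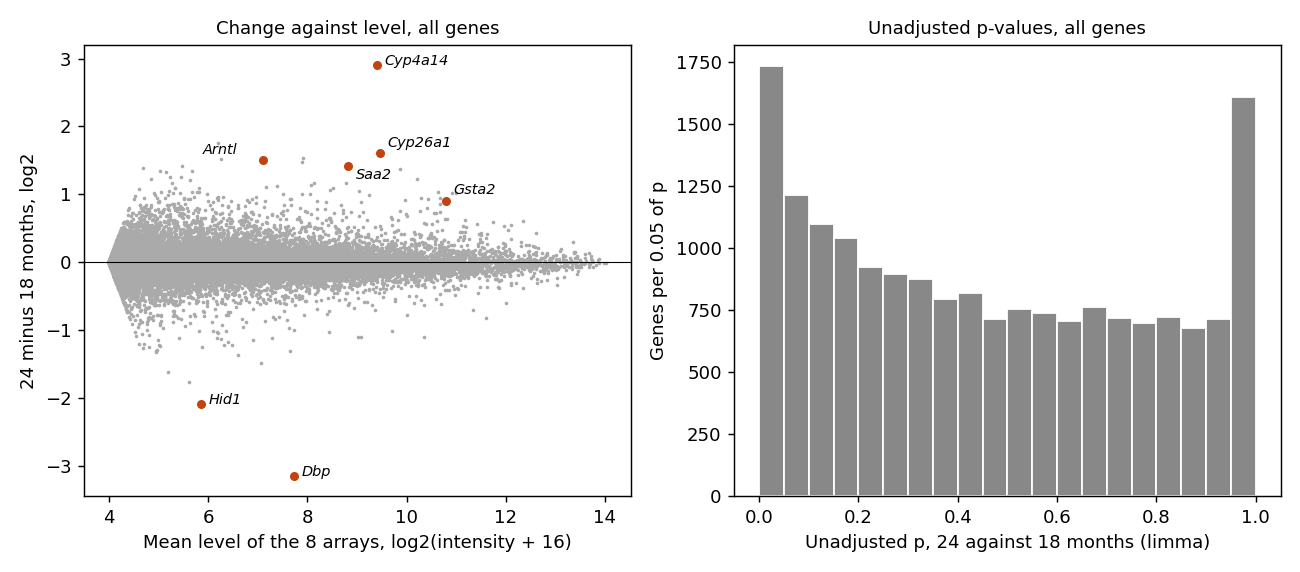
Left, the difference between 24 and 18 months (log2) of each of 18193 genes against its mean level on the 8 arrays (log2(intensity + 16)), with 7 genes named; right, the number of genes per 0.05 of unadjusted limma p. The first bin holds 1733 genes, and the last bin includes the 902 genes with a difference of 0.

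Wdr55, which encodes a WD repeat protein of the nucleolus, had the lowest p of all genes. Its levels were 7.81, 7.77, 7.81 and 7.86 in the 18 month animals 4, 9, 14 and 19 and 7.54, 7.19, 7.26 and 7.28 in the 24 month animals 25, 29, 33 and 34. All 4 old animals lay below all 4 younger ones, with animal 25 nearest to them, and below the 6 and 12 month animals as well. The difference was -0.50 (SE 0.07, unadjusted p = 1.1e-05, adjusted p = 0.151), and the adjusted p was 0.00413 without animal 25.

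Parp16, an ADP-ribosyltransferase of the endoplasmic reticulum, stood first among the genes with higher levels. It measured 8.54, 8.19, 8.20 and 8.06 at 18 months and 9.11, 9.51, 8.79 and 8.96 at 24 months. The old animals were above every younger animal of the 12, whose levels reached 8.54. The difference was 0.84 (SE 0.15, adjusted p = 0.151). Ece1, the endothelin-converting enzyme, had tight levels within both groups, at 9.39 ± 0.07 (SD, n = 4) at 18 months and 10.03 ± 0.07 (SD, n = 4) at 24 months. Its groups did not overlap, though 1 of its 3 probe sets pointed the other way, and the adjusted p of 0.151 became 0.0392 in the fit of the 2 ages alone.

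Lifr, the receptor chain for leukaemia inhibitory factor, had the largest difference among the lower genes of lowest p that were above background. Its levels were 11.93, 11.36, 11.86 and 11.64 at 18 months and 10.87, 10.85, 11.29 and 10.96 at 24 months. The 4 old animals lay below all 12 younger ones, and all 3 of its probe sets pointed the same way. The difference was -0.70 (SE 0.13, adjusted p = 0.151). Creb3, a transcription factor held in the endoplasmic reticulum membrane, was lower by 0.29 on the log2 scale, and Emc7, a subunit of the membrane complex that inserts proteins there, was lower at 10.17 ± 0.02 against 10.36 ± 0.04 (SD, n = 4 each).

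The other genes of lowest p had varied roles. With lower levels at 24 months they were St3gal3, a sialyltransferase (-0.33), Gemin2, a part of the complex that assembles spliceosomal particles (-0.41), Elof1, a transcription elongation factor (-0.21), Mrpl41 and Timm8b of the mitochondria, and Myt1, which was not well above background on any array. With higher levels they were Txn1, Epc2 (0.31), Tspan14, a tetraspanin (0.39), and Nebl, which was well above background on 3 of 4 arrays at 24 months and on none at 18 months and was at least 1.18-fold higher. Mfsd12, Zfp583, Gabrb2 and Gtsf1 completed this set without being above background on any array. Adjusted p ran from 0.151 to 0.165 over all 20.

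A gene that departs only in the last step should leave the range of all younger ages. The 4 animals of 24 months lay above all 12 younger animals for 64 genes (0.352%) and below all 12 for 126 genes (0.693%). Among the former, Saa2, an acute phase protein of the serum amyloid A family, measured 8.17, 8.02, 7.89 and 8.38 at 18 months and 10.98, 8.97, 9.63 and 8.57 at 24 months. Animal 25 was highest and animal 34 lay just above the younger range, which ended at 8.38. The difference was 1.42 (SE 0.39, adjusted p = 0.275). Also above all younger animals were Il1rn, the antagonist of the interleukin 1 receptor (0.59), Mmp14, a membrane metalloproteinase (0.47), Slc11a2, an iron transporter (0.49), and B2m, the light chain of class I antigen presenting molecules (0.12). Below all younger animals were Hbb-b2, a haemoglobin chain above background in 1 of 4 old animals (-1.23), Hsd17b2, which inactivates sex steroids (-0.48), and Arhgap26 (-0.85). Their choice as examples followed sight of the values.

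The circadian clock held the widest differences of any list. In this clock the activators CLOCK and BMAL1, the latter encoded by Arntl, switch on the period and cryptochrome repressors, the nuclear receptors Nr1d1 and Nr1d2, and the output factor Dbp, and these in turn act back on the activators. Its genes swing widely over each day in liver, so that their level depends on the hour at which an animal is killed. Promoters of 4 of these genes are shown because the genes had differences in both directions and carry the letters through which the loops are known to be wired: the E-box CACGTG of the activators, the D-box TTATGTAA of Dbp and its relatives, and the letters AGGTCA of the Nr1d and Ror receptors. They come from RefSeq on build GRCm38.p6, run 5′ to 3′ from 250 bases before the transcription start to 50 after it, and have the matching letters on either strand in capitals, where TGACCT is AGGTCA read on the opposite strand.
Arntl (chr7:113207261-113207560, plus strand): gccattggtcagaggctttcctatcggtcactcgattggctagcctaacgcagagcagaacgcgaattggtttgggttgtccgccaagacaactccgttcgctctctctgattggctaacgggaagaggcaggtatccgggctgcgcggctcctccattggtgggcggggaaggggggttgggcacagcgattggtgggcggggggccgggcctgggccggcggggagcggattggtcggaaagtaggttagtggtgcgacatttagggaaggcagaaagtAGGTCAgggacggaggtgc
Cry1 (chr10:85185005-85185304, minus strand): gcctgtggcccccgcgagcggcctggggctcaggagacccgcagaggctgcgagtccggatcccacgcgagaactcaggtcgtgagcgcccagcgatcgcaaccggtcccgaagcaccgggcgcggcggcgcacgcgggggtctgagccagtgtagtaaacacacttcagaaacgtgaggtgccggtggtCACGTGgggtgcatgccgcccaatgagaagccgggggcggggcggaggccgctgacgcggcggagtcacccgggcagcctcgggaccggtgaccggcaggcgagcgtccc
Per1 (chr11:69098699-69098998, plus strand): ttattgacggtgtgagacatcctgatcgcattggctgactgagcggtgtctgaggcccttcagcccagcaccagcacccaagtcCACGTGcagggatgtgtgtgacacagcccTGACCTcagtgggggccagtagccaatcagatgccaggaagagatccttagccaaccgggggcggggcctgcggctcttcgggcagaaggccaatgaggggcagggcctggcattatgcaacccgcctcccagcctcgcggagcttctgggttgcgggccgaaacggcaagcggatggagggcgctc
Per3 (chr4:151044616-151044915, minus strand): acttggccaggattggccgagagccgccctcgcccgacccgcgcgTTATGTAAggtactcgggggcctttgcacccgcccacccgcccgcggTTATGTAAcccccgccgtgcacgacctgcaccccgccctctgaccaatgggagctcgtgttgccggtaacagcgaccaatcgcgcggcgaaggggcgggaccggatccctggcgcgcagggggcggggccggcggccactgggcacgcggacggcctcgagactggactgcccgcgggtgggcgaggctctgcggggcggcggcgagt

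Promoters were found for 19 of the 23 measured clock genes, as 27 windows of 300 bases counting alternative starts. CACGTG was found in 6 of the 27 windows, TTATGTAA in 1 and AGGTCA in 5, searched on both strands with no matches overlapping. The same letters were held by 7.15%, 0.938% and 16.3% of all 32851 promoter windows. A match describes the sequence and shows no binding. The Per3 window held 2 copies of the D-box letters, and that of Ciart, a repressor of the activators, 3 E-boxes.

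Of the activators, Arntl measured 7.95, 6.75, 5.38 and 5.33 in the 18 month animals 4, 9, 14 and 19 and 7.97, 8.29, 7.93 and 7.20 in the 24 month animals. The old animals were all high, and so was the 18 month animal 4, so that the groups overlapped. The difference was 1.5 (SE 0.66, unadjusted p = 0.0421, adjusted p = 0.503). Its partner Npas2 (1.21), the repressor of D-boxes Nfil3 (1.14) and the cryptochrome Cry1 (0.87) were also higher on average, and animal 4 was the highest of its group in each. Clock itself differed by 0.42.

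Dbp, the output factor, was above the background bound in 3 of 4 animals at 18 months and in 1 of 4 at 24 months, so the size of its difference is uncertain. Its levels were 5.81, 9.33, 10.93 and 11.12 at 18 months and 5.68, 4.86, 5.77 and 8.29 at 24 months. Animals 9, 14 and 19 were high, while animal 4 sat among the old animals, of which animal 34 was the highest. The difference of -3.15 (SE 1.27, unadjusted p = 0.0281, adjusted p = 0.449) stood beside a span of 3.39 within the 6 month group, from 8.11 to 11.50, and of 3.73 within the 12 month group. Its relatives Tef (-1.03) and Hlf (-0.55) and the outputs Usp2 (-1.37) and Wee1 (-0.77) also had lower means.

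Among the repressors, Per1 measured 5.60, 5.62, 6.48 and 6.32 at 18 months and 5.06, 5.06, 4.96 and 5.16 at 24 months. Every old animal was below every 18 month animal, and none of them exceeded the background bound. Per2 (-1.13), Per3 (-1.05), Cry2 (-0.81) and Bhlhe40 (-1.11) were lower on average, with animal 4 lowest of its group in all 4. Nr1d1 split the old animals, at 4.93 and 4.87 in animals 25 and 29 and 7.37 and 8.09 in animals 33 and 34, against 7.20 to 8.12 at 18 months. Noct, a rhythmic nocturnin phosphatase, had its lowest 18 month level in animal 4, away from the old animals: it measured 8.95, 9.76, 9.95 and 9.77 at 18 months and 10.91, 10.93, 10.84 and 10.62 at 24 months. Its groups did not overlap, with a difference of 1.22 (SE 0.45, adjusted p = 0.391), although a 12 month animal reached 10.99.

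Over the 23 measured clock genes, 5 had a higher and 6 a lower level at an unadjusted p under 0.05, against 3.9% and 5.62% of all genes. The median difference was -0.77, the lowest of the 41 lists, beside -0.0021 over all genes. Leaving out animal 4 gave -1.02 with 5 higher and 10 lower, beside 4.01% and 5.53% of all genes. Leaving out animal 19 gave -0.50 with 1 higher and 3 lower. With any 1 of the 8 animals left out, medians lay between -1.02 and -0.50. The counts then ran from 1 to 5 higher and from 3 to 10 lower. Over all genes, 1355 to 2035 then had an unadjusted p under 0.05 in either direction. The hour of killing was not tested, since no source used here gives it.

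**Figure D2:**
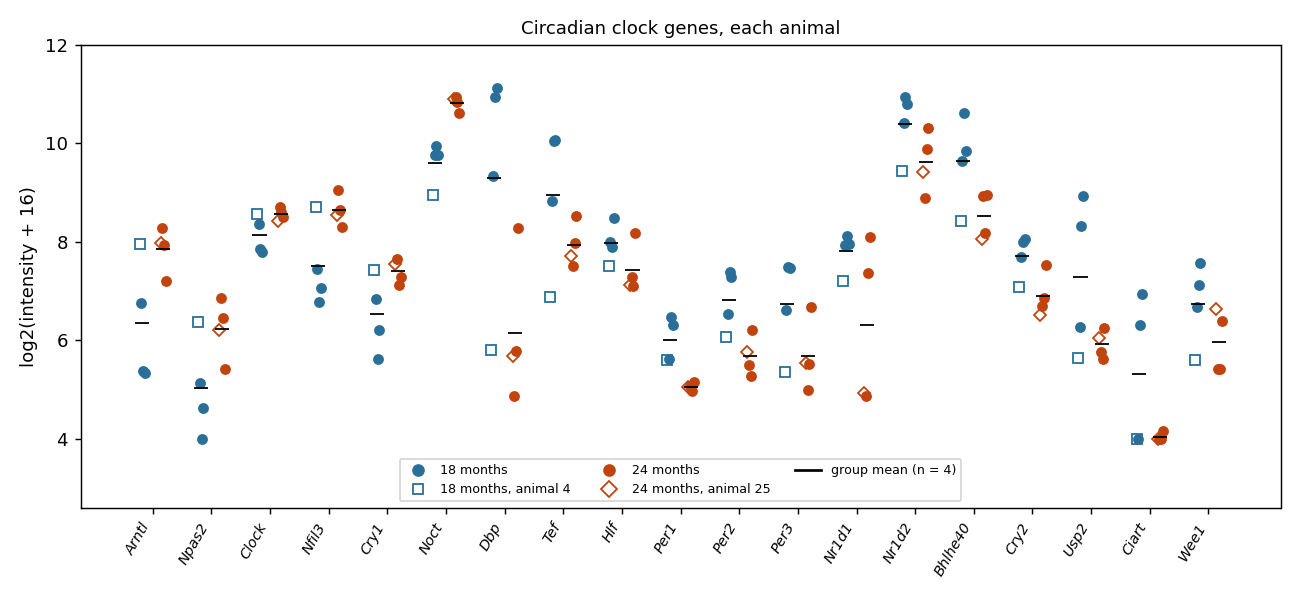
Levels (log2(intensity + 16)) of 19 circadian clock genes in each 18 month animal (blue) and each 24 month animal (orange), with black bars for the means of 4 animals. The open square, animal 4 of 18 months, sits with the orange points for Arntl, Nfil3, Dbp and Per3 and apart from them for Noct.

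Most macrophage, T and NK cell genes had higher means at 24 months, in large part through 1 animal, while B and plasma cell genes did not. The resident macrophages of the liver are the Kupffer cells, marked by Vsig4, Marco, Cd163 and Cd5l, and monocytes that enter from blood carry Ccr2 and Cx3cr1. Of 58 measured macrophage genes, 50 had a difference above 0, as had 44.5% of all genes. At an unadjusted p under 0.05, 10 were higher and 2 lower, beside 3.9% and 5.62% of all genes. The median difference was 0.59, the highest of the 41 lists. The median level of the list was 7.40, 7.37, 7.32 and 7.76 at 18 months and 9.44, 7.54, 8.24 and 7.22 at 24 months. Animal 25 was far above all others, animal 33 was next, and animals 29 and 34 lay within or below the 18 month range. Without animal 25 the median difference was 0.15, with 5 higher and 1 lower, beside 3.2% and 4.24% of all genes. The difference then stayed above 0 for 43 of the 58 genes, beside 8223 of all 18193 genes. With any 1 animal left out, medians lay between 0.15 and 0.83, with 5 to 39 higher and 1 to 2 lower. The highest median and count of the list came without animal 34. Over all 18193 genes, 1355 to 2035 had an unadjusted p under 0.05 in either direction when any 1 animal was left out.

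Animal 25 combined high levels of antigen presenting genes with low levels of some Kupffer cell genes but not of others. Cd74, the invariant chain of class II molecules, measured 9.61, 9.76, 9.78 and 10.07 at 18 months and 12.43, 10.09, 10.91 and 9.59 at 24 months. Animals 25 and 33 were above the younger group, animal 29 at its upper end and animal 34 below it, and the class II genes H2-Aa, H2-Ab1 and H2-Eb1 had the same highest animal. Marco, a scavenger receptor, measured 8.08, 7.14, 8.60 and 9.36 at 18 months and 4.72, 7.79, 8.48 and 6.94 at 24 months. Animal 25 alone was below the background bound for this gene. Cd163 was likewise lowest in animal 25, at 6.14 against 7.57 to 8.47 in the other old animals, while Vsig4 and Cd5l had their highest levels there, at 11.98 and 11.85.

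Some macrophage genes kept the groups apart in all 8 animals. Of the 58, 5 were wholly higher (8.62%) and 1 wholly lower (1.72%), beside 2.15% and 3.39% of all genes. Ccr2, the receptor that brings monocytes into tissue, ran from 5.20 to 5.38 at 18 months and from 5.75 to 7.69 at 24 months, well above background only in animal 25. Cx3cr1 (0.72), Itgax (0.80), Mmp12 (0.66) and Ccl4 (1.25) were likewise higher in every old animal, at levels where at most 1 array exceeded the bound, and a second probe set of Cx3cr1 pointed the other way. Trem2, a lipid receptor of macrophages, was lower in every old animal (-0.47), from 6.37 to 6.45 at 18 months and from 5.31 to 6.30 at 24 months. It exceeded the bound on 2 of 4 arrays at 24 months, and its second probe set differed by 0. Vcam1, the adhesion molecule that holds leukocytes, was higher by 1.53 on the log2 scale (SE 0.55, adjusted p = 0.379), from 6.80 to 7.80 at 18 months and from 7.62 to 10.52 at 24 months, with overlapping groups.

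T and NK cell genes gave a median difference of 0.27 over 48 genes, with 4 higher and 0 lower (3.9% and 5.62% of all genes). Without animal 25 the median was 0.06, with 2 higher, beside 3.2% of all genes. Ccl5, a chemokine of activated T cells, was 10.32 in animal 25 and 5.47 to 6.62 in the other old animals, against 5.19 to 5.85 at 18 months. Cd3g was above background only in animal 25, and Cd8a on none of the 8 arrays. The 22 neutrophil genes had 5 higher and 0 lower with a median of 0.27, and 0.06 without animal 25. Neither interferon response genes (45) nor B and plasma cell genes (35) had a member at an unadjusted p under 0.05, with medians of 0.11 and -0.02. Ighm, the heavy chain of IgM, ran from 9.14 to 12.14 at 18 months and from 9.09 to 11.66 at 24 months. At 6 months it ran from 4, the floor of the scale, to 6.07, all below the background bound. The probe set used had a difference of 0.34 between 24 and 18 months, while 8 of the 11 probe sets of Ighm pointed the other way.

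Summed intensity shows the same animal. The 58 macrophage genes summed to 74190 in animal 25, to between 19070 and 35840 in the other 3 old animals and to between 21170 and 28850 at 18 months. For the 48 T and NK cell genes the sums were 4570, 1091 to 1485 and 1069 to 1215, and for the 22 neutrophil genes 3367, 614 to 1622 and 635.8 to 897.7. Of the T and NK genes, 20 exceeded the background bound in animal 25, against 4 to 7 in the other old animals and 3 to 5 at 18 months, and 28 were above it on none of the 8 arrays. Animal 25 also had the lowest array weight of the 16 arrays, 0.451.

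The median of the proliferation genes was also highest in that animal. The median level of the 61 genes was 6.23 in animal 25, 5.11 to 5.17 in the other old animals and 5.11 to 5.50 at 18 months. Mki67, a marker of dividing cells, was 7.13 in animal 25 and below the background bound on the other 7 arrays. The list had 48 genes with a difference above 0 and a median of 0.18. Without animal 25 these were 23 genes and -0.03. The old animals were wholly above the 18 month animals for 6 of the 61 genes both with and without animal 25. Over all 18193 genes the counts were 391 (2.15%) with it and 644 without it. At an unadjusted p under 0.05, 7 of the 61 were higher with it and 4 without it, beside 3.9% and 3.2% of all genes. Mcm3, a part of the replicative helicase (0.55), and Racgap1 of the dividing spindle (0.93) were apart in all 8 animals, Racgap1 within background and Mcm3 above it in 1 old animal.

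**Figure D3:**
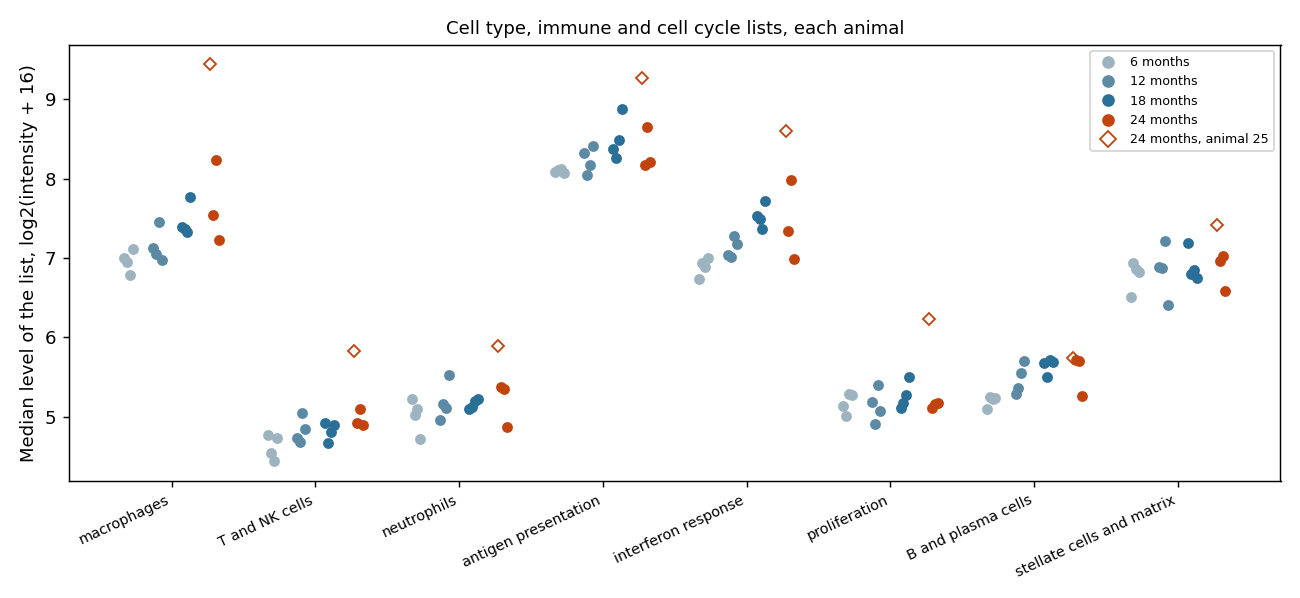
Median level (log2(intensity + 16)) of 8 gene lists in each of the 16 animals, by age; the open diamond is animal 25 of 24 months. It is the highest of the 16 animals for macrophages (9.44) and proliferation (6.23), and without it the old animals overlap the 18 month animals in both lists.

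Genes of the mitochondrial energy machinery had slightly lower levels at 24 months. The respiratory complexes and the ATP synthase make most of the ATP of a hepatocyte, and the mitochondrial ribosome translates the few of their subunits that mitochondrial DNA encodes. Of 70 oxidative phosphorylation genes, 61 had a difference below 0, as had 50.5% of all genes. At an unadjusted p under 0.05, 0 were higher and 17 lower, beside 3.9% and 5.62% of all genes. The median was -0.09, beside -0.0021 for all genes. Ndufb11 of complex I ran from 11.96 to 12.00 at 18 months and from 11.80 to 11.94 at 24 months. The groups did not overlap, and the difference of -0.13 (SE 0.04, adjusted p = 0.344) was small. The same held for Atp5k (-0.24) and Atp5j (-0.11) of the ATP synthase and Cox4i1 of complex IV (-0.09), and Ndufs5 had the lowest value of the list with -0.26. Without animal 25 the list had 1 higher and 7 lower, beside 3.2% and 4.24% of all genes, with a median of -0.05.

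The mitochondrial ribosome, chosen after its values were seen, went the same way. Of its 76 measured proteins 68 had a difference below 0, as had 50.5% of all genes. At an unadjusted p under 0.05, 0 were higher and 33 lower, beside 3.9% and 5.62% of all genes. For 26 of the 76 the old animals were wholly below the 18 month animals, beside 3.39% of all genes. For 15 they were below all 12 younger animals, beside 0.693% of all genes. The median was -0.14, and -0.10 with 26 lower without animal 25 (4.24% of all genes lower without it). Mrpl41 measured 9.18, 9.22, 9.16 and 9.20 at 18 months and 8.73, 8.86, 8.85 and 8.89 at 24 months. All 4 old animals were lower, animal 25 most so, by 0.36 on the log2 scale (SE 0.06, adjusted p = 0.151). Mrpl12 (-0.30), Mrpl20 (-0.33) and Mrpl47 (-0.38) also did not overlap. With the mean intensity of the array as a covariate the medians were -0.15 for this set and -0.09 for oxidative phosphorylation. Array median scaling gave -0.31 for oxidative phosphorylation, but it shifted other bright lists as well, with -0.27 for ribosomal proteins and -0.31 for periportal genes, against -0.0048 and -0.04 without it.

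Male-biased genes depend on the pulsed growth hormone of males and lose expression when the pulses flatten. Of 25 measured male-biased genes 23 had a difference below 0 (50.5% of all genes), with 0 higher and 7 lower at an unadjusted p under 0.05 (5.62% of all genes lower). For 6 the groups did not overlap, all lower (3.39% of all genes). The median was -0.22, between -0.26 and -0.17 when any 1 animal was left out, -0.11 without animals 4 and 25 and -0.13 with the Gapdh ratio as a covariate. It was -0.40 under array median and -0.30 under trimmed mean scaling. Hsd3b5, a steroid dehydrogenase of male liver, measured 12.40, 12.21, 12.38 and 12.21 at 18 months and 11.56, 11.84, 11.84 and 11.54 at 24 months. Every old animal was lower than every 18 month animal, by 0.60 on the log2 scale on average (SE 0.21, adjusted p = 0.369), yet a 12 month animal was lower still at 11.35. The bile acid and steroid transporter Slco1a1 (-0.46), the oxysterol hydroxylase Cyp7b1 (-0.22) and the complement proteins C8b (-0.27) and C9 (-0.25) did not overlap either. Elovl3, a fatty acid elongase that also follows the clock, went the other way, at 12.04 ± 0.69 against 12.64 ± 0.19 (SD, n = 4 each). Ghr, the growth hormone receptor, was lower in all 4 old animals, by 0.23 on the log2 scale (SE 0.05, adjusted p = 0.165). It was picked out only once its values were known. The 30 measured female-biased genes had 2 higher (6.67%) and 1 lower (3.33%), beside 3.9% and 5.62% of all genes, with a median of 0.09.

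**Figure D4:**
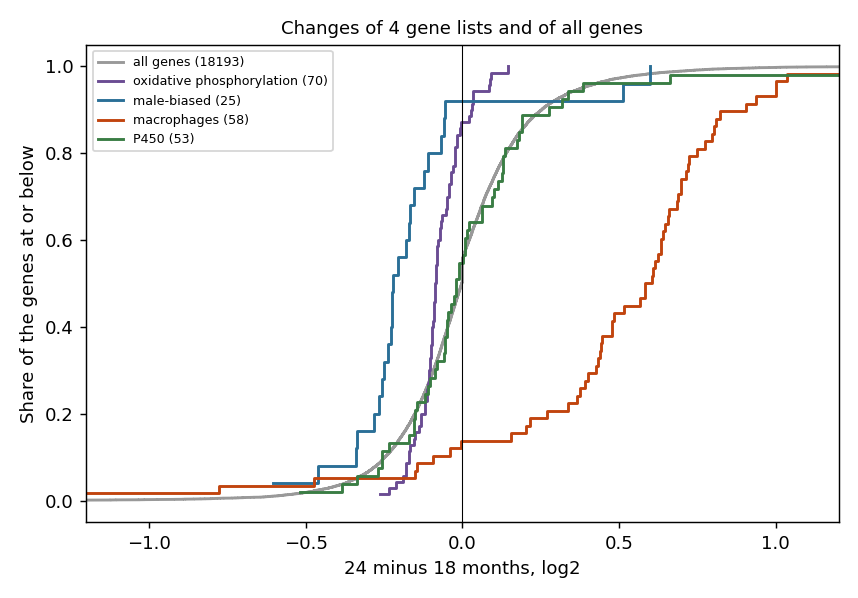
Cumulative share of genes at or below each difference between 24 and 18 months (log2), for all 18193 genes and for 4 lists, with list sizes in the legend; values beyond 1.2 in size are not drawn. The male-biased curve (median -0.22) and the oxidative phosphorylation curve (median -0.09) lie to the left of that of all genes, the macrophage curve (median 0.59) to the right, and the P450 curve (median -0.02) on it.

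Genes that handle foreign compounds, the subject of the series, differed little as a whole. Of the 302 symbols listed, 254 were measured; 17 had a higher and 14 a lower level at an unadjusted p under 0.05 (6.69% and 5.51%, against 3.9% and 5.62% of all genes), and the median was -0.02. The 53 cytochrome P450 genes, which carry out most oxidation of phase I, had 3 higher and 2 lower. Cyp4a14, a fatty acid hydroxylase induced through the receptor encoded by Ppara, was above the background bound in 3 of 4 animals at 18 months and in all 4 at 24 months. It measured 5.74, 7.58, 8.15 and 10.31 at 18 months and 10.04, 10.89, 10.39 and 12.07 at 24 months. Animal 4 was lowest and animal 34 highest, and animal 19 of the younger group lay among the old ones. The difference was 2.90 (SE 0.86, adjusted p = 0.305), over a spread of 7.08 to 9.68 at 12 months.

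Other P450 genes differed by less. Cyp2c29, among the brightest genes, was 13.01 ± 0.04 at 18 months and 13.20 ± 0.06 at 24 months (SD, n = 4 each) without overlap, but its difference of 0.19 became -0.14 under array median and -0.04 under trimmed mean scaling. Cyp1a2, which oxidizes caffeine and aromatic amines, ran from 12.44 to 12.73 at 18 months and from 11.94 to 12.36 at 24 months, a difference of -0.38 (SE 0.15, adjusted p = 0.424). Cyp26a1, which degrades retinoic acid, measured 9.39, 8.39, 8.07 and 8.81 at 18 months and 9.60, 10.61, 9.89 and 10.95 at 24 months. Its groups did not overlap, although its difference of 1.6 (SE 0.67) stood beside an SD of 1.73 in the 6 month group. Cyp2e1 (-0.02), Cyp3a11 (0.06), Cyp2b10 (0.34), Cyp7a1 (-0.26) and Cyp4a12a (-0.17) overlapped.

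Conjugating enzymes of phase II, 60 genes, had 5 higher and 4 lower, beside 3.9% and 5.62% of all genes. Gsta2, a glutathione transferase, measured 10.25, 10.40, 10.27 and 10.47 at 18 months and 11.25, 11.15, 10.79 and 11.81 at 24 months. All old animals were higher, by 0.90 on the log2 scale (SE 0.21, unadjusted p = 0.000812, adjusted p = 0.178). The 18 month animals were the ones that stood apart, since the means were 11.30 at 6 months, 11.18 at 12 months and 11.25 at 24 months, against 10.35 at 18 months. Gsta3 (0.16) and Gsto1 (0.29) also did not overlap, with the sign of Gsta3 turned under array median and trimmed mean scaling. Ugt2b1 (-0.17) and Ugp2, which makes the sugar donor of glucuronidation (-0.31), were lower on average. Gstp1, Gstm3 and Sult1e1 overlapped, the last not above background on any array.

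Among other phase I enzymes, 73 genes, 3 were higher and 6 lower, beside 3.9% and 5.62% of all genes. Ces2b, a carboxylesterase, measured 7.59, 6.53, 6.70 and 6.11 at 18 months and 5.50, 5.77, 5.01 and 6.18 at 24 months. Animal 34 overlapped the younger group, and only this animal exceeded the background bound among the old ones. The difference was -1.12 (SE 0.31, adjusted p = 0.278), after means of 7.99 at 6 months and 7.06 at 12 months. Ces2g (-0.41), the aldo-keto reductases Akr1e1 (-0.35) and Akr1c12 (-0.22) were lower without overlap, and Fmo5, a flavin monooxygenase, was higher without overlap (0.30).

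Of 68 transporters, 6 were higher and 2 lower, beside 3.9% and 5.62% of all genes. Abcc9, the regulatory subunit of a potassium channel, ran from 8.98 to 9.19 at 18 months and from 9.36 to 9.70 at 24 months. The monocarboxylate carrier Slc16a1 (0.41) and the bile salt exporter Abcb11 (0.22, but -0.01 under array median scaling) overlapped. Of 35 regulators, 2 were higher and 4 lower, the lower ones including Ppara, the fatty acid sensor (-0.61), Hnf4a, the main hepatocyte factor (-0.25), and Rxra, the partner of many receptors (-0.30). The groups of Ppara, Hnf4a and Rxra overlapped. For 1 of the 35 the old animals were wholly higher, beside 2.15% of all genes. Arnt was higher without overlap (0.24), though 1 of its 5 probe sets pointed the other way. Cyp4a14 had a higher and Ppara a lower mean at 24 months. The sensors Nr1i2, Nr1i3, Ahr, Nfe2l2 and Nr1h4 differed by 0.08 or less in size, with standard errors of 0.14 to 0.24.

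Targets of NRF2, the factor encoded by Nfe2l2 that answers oxidants, had 6 higher and 0 lower among 35 genes, beside 3.9% and 5.62% of all genes, with a median of 0.03 that became -0.13 under array median and -0.03 under trimmed mean scaling. Txn1, thioredoxin, measured 12.33, 12.33, 12.37 and 12.35 at 18 months and 12.67, 12.54, 12.54 and 12.61 at 24 months. The old animals were just above all 12 younger ones, which reached 12.5388 against a lowest old level of 12.5441. The difference from 18 months was 0.25 (SE 0.05, adjusted p = 0.151), which became -0.05 under array median scaling, and its second probe set differed by -0.71. Txnrd1 (0.17), Gclc, which starts glutathione synthesis (0.23, but -0.02 under array median scaling), and Osgin1 (0.62) had higher means with overlap, and Nqo1 differed by 0.06. Fatty acid oxidation, 37 genes, had 7 higher and 2 lower, with Ehhadh of the peroxisome without overlap (0.34) and Acot1 with overlap (0.67), and a median of 0.03 that turned to -0.17 under array median scaling and -0.07 under trimmed mean scaling and lay between -0.02 and 0.07 when any 1 animal was left out.

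The groups of secreted proteins are given side by side, with no test between them. Acute phase genes (37) had 6 higher and 2 lower, beside 3.9% and 5.62% of all genes. Their median of 0.07 turned to -0.17 under array median and -0.11 under trimmed mean scaling. Saa1 measured 10.47, 10.55, 9.92 and 10.71 at 18 months and 12.75, 11.12, 11.48 and 10.34 at 24 months, and Lcn2, an iron-binding defence protein, 6.83, 6.98, 7.12 and 7.70 at 18 months and 10.06, 7.99, 9.12 and 7.35 at 24 months. In both, animal 25 was highest, animal 33 next, and animal 34 within the younger range. Complement and coagulation genes (41) had 1 higher and 6 lower, and other plasma proteins (32) 3 higher and 7 lower, with medians of -0.05 each. These became -0.31 and -0.42 under array median scaling and -0.21 and -0.32 under trimmed mean scaling. Factor XI, encoded by F11, was lower in every old animal by 0.54 on the log2 scale (SE 0.14, adjusted p = 0.234), and Alb by 0.17 (SE 0.05, adjusted p = 0.329).

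Within the 18 month group, genes of muscle and fat set animal 4 apart. The median level of 29 muscle genes was 6.92 in that animal and 4.69 to 5.02 in the other 18 month animals, and 19 of the genes exceeded the background bound there. Muscle medians were higher still in the 6 month animal 11 (9.09) and the 12 month animal 6 (8.28), and the median of the pancreas genes was 6.24 and 6.44 in the 12 month animals 13 and 17 and at most 5.17 in the others. These animals enter the comparison of the steps. The muscle median difference of -0.19 became 0.19 without animal 4, and that of 18 adipose genes, -0.25, became 0. Their part in the other differences was not tested. Without animal 4 the number of genes at an unadjusted p under 0.05 was 1735, against 1733 with it.

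The remaining genes looked at for ageing, growth and lipid synthesis gave overlapping groups. Cdkn1a, a cell cycle inhibitor induced by p53, was 5.44 ± 1.13 at 18 months and 6.12 ± 0.17 at 24 months (SD, n = 4 each), and Cdkn2a, a marker of senescence, was not above background on any array. The lipogenic genes Scd1 (0.14) and Fasn (-0.05) and the acute phase gene Fgl1 (0.29) overlapped. Afp, Igf2 and Gpc3, genes of fetal liver, were above background on no array at 24 months, and the difference of Afp (0.84, SE 0.25, unadjusted p = 0.0051, adjusted p = 0.305) lay within background at both ages. Col1a1, a collagen of stellate cells, exceeded the bound on 2 of the 8 arrays, those of animals 4 and 25, at 6.19 and 6.92.

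To ask what is particular to the last months, the step from 18 to 24 months was tested against the step from 6 to 12 months. By limma with Benjamini-Hochberg adjustment, 2 of 18193 genes (0.011%) differed between the steps, and 1461 (8.03%) had an unadjusted p under 0.05. Zbtb44, a zinc finger protein, had opposite differences in the steps. Its levels ran from 9.66 to 9.72 at 6 months, 9.37 to 9.47 at 12 months, 9.32 to 9.39 at 18 months and 9.46 to 9.65 at 24 months. It was lower after the first span and higher after the last, with the groups of each span apart, and the difference of the steps was 0.45 (SE 0.06, adjusted p = 0.0404). Elof1, the elongation factor, ran from 8.76 to 8.81 at 6 months, 8.89 to 9.02 at 12 months, 8.81 to 8.90 at 18 months and 8.61 to 8.71 at 24 months. It was higher after the first span and lower after the last, a difference of -0.36 (SE 0.05, adjusted p = 0.0443).

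These 2 calls rested on small steps in bright genes and were not stable. Neither gene passed in the fit of all 28 arrays, under array median or trimmed mean scaling, or when genes were kept only above background, where the count was 0. One of the 3 probe sets of Zbtb44 pointed the other way at 24 against 18 months. Leaving out single animals gave counts of 0 to 5, with 0 on leaving out any of the 6 month animals 2, 11, 16 and 21, the 12 month animal 6 or the 18 month animals 14 and 19, and 5 without the 12 month animal 13 or the 24 month animal 25. Limk1, a kinase of the actin skeleton, came next with a difference of steps of -0.96 (adjusted p = 0.0684), at levels below background, and then St3gal3 with -0.51 (SE 0.08, adjusted p = 0.113).

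**Figure D5:**
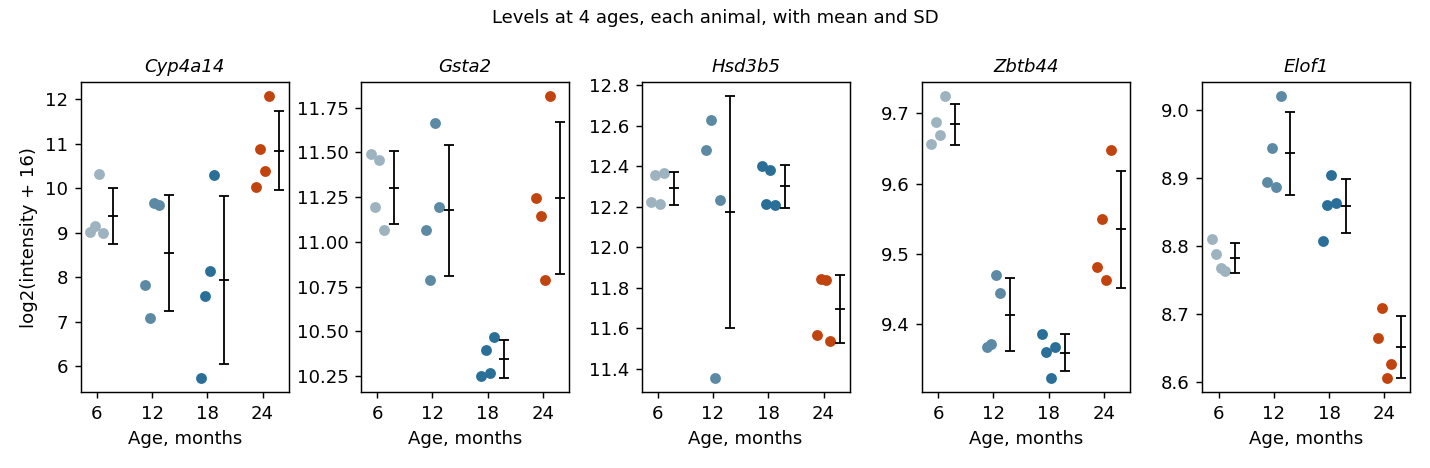
Levels (log2(intensity + 16)) of 5 genes in each animal at 6, 12, 18 and 24 months, with the mean and SD of 4 animals beside the points; each panel has its own axis. Gsta2 is low at 18 months (mean 10.35) and not at 24 months, Hsd3b5 is lowest on average at 24 months (11.70), and Zbtb44 and Elof1 reverse direction between the first and the last span.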

How the data were processed

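The series matrix as deposited holds probe set intensities on a linear scale, 45101 probe sets on 28 arrays; how the authors summarized probes is not given in the sources used here, and the deposited intensities are not on a common scale between arrays. The 64 control probe sets were dropped. Of the rest, 34945 carried 1 gene symbol in the platform annotation, 932 several and 9160 none, and each gene took its probe set with the highest mean over 28 arrays. The 16 C57BL/6 arrays were quantile normalized, those under 0 became 0, and all went to log2(value + 16), a scale that understates differences of dim genes. The background bound is the size that 95% of the values under 0 do not exceed. An "at least" fold compares the brighter group's mean with a dim mean in which no array counts as lower than the bound.

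limma 3.58.1 in R 4.3.3 fitted 1 coefficient per age over the 16 arrays (lmFit, eBayes, two-sided), with Benjamini-Hochberg adjustment over 18193 genes at a threshold of 0.05; data.table (version 1.17.8), Python 3.11.15 and matplotlib 3.10.9 served for tables and plots. The fit was tested on simulated data. Lists (41) are described by counts and medians, with no set test. Named genes were to be called genes without overlap; with none called, they were the 10 of lowest p in each direction, predicted transcripts skipped, together with a fixed set of hepatic and ageing genes, of which Ugt1a1, Spp1 and Gdf15 were not measured, and those called for the difference of the steps. Clock, immune, mitochondrial and other genes named beyond that were chosen after their values were seen. Members, lists and tests were chosen with earlier results of these data known. The alternatives were other scalings, pseudocounts, filters, probe set choices, weights, variance settings, samples in the fit, array covariates and leaving out each animal; the fit without animals 4 and 25 together was added after seeing the data.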

Additional observations from a re-analysis of the deposited data

Results flagged for a closer look

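Among 191 groups of 4 values tested for a sample far from the others, 11 had one; chance gives about 5% of such groups. Of single genes, Gstp1 at 24 months was 13.51 in animal 34 against 13.67 to 13.70 in the others, Ahr at 18 months was 9.21 in animal 4 against 9.64 to 9.66, Col1a1 at 18 months was 6.19 in animal 4 against 4 in the others, and Mki67 at 24 months was 7.13 in animal 25 against 4.68 to 5.04. For Col1a1 the level of 4 is the floor of the scale, so any single value above it would have been flagged. Of list medians at 18 months, transporters were 7.46 in animal 19 against 7.03 to 7.10, bile acid genes 10.66 in animal 14 against 10.95 to 11.005, macrophage genes 7.76 in animal 19 against 7.32 to 7.40, and muscle genes 6.92 in animal 4 against 4.69 to 5.02. Of list medians at 24 months, B and plasma cell genes were 5.26 in animal 34 against 5.70 to 5.74, proliferation genes 6.23 in animal 25 against 5.11 to 5.17, and pancreas genes 4.55 in animal 33 against 5.06 to 5.10.

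By limma's test of the difference between the steps, Zbtb44 (0.447) and Elof1 (-0.36) had opposite directions from 6 to 12 and from 18 to 24 months.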

How the results depend on the processing

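No paired analysis was possible because the 18 and 24 month groups share no animal number. The count of genes called between 24 and 18 months, 0 in each direction, was 2 higher and 0 lower in the fit of the 18 and 24 month arrays alone, 2 higher and 1 lower when the 8 arrays were normalized and fitted alone, 0 higher and 1 lower with every probe set tested apart and with array weights, and 2 higher and 2 lower without animals 4 and 25 (a choice made after seeing the data); leaving out single animals gave 0 to 1 in each direction. Wdr55 was called with array weights, without animal 25 and without animals 4 and 25, and Ece1 in the fit of the 18 and 24 month arrays alone and with the 8 arrays normalized and fitted alone. H3c11 was called without animal 25 (adjusted p = 0.00156) and H2-Oa without animal 29 (adjusted p = 0.00128). The count for the difference of the steps, 2, was 0 under array median scaling, trimmed mean scaling, the filter on dim genes, probe sets tested apart, robust variance, all 28 arrays in 1 fit, a minimum of 1.5-fold and the Gapdh covariate, 1 with the intensity covariate, 4 with array weights and 7 without animals 4 and 25; leaving out single animals gave 0 to 5. The number of genes at an unadjusted p under 0.05 was 1355 without animal 25. The median difference over all genes was -0.04 under array median scaling and 0.002 under trimmed mean scaling.

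Of 65 named genes, 41 kept their sign under every alternative and 24 did not, none of these 24 called. The sign turned under array median scaling for Txn1 (-0.048), Cyp2c29 (-0.14), Cyp3a11 (-0.36), Abcb11 (-0.014), Nfe2l2 (-0.035), Nr1h4 (-0.037), Scd1 (-0.29) and Car3 (-0.39). Under trimmed mean scaling it turned for Cyp2c29 (-0.039), Cyp3a11 (-0.26), Nr1i3 (0.0028), Scd1 (-0.20) and Car3 (-0.29), and with a pseudocount of 64 for Gpc3 (-0.0094). With array weights it turned for Abcc4 (-0.035), Nr1i3 (0.039), Nfe2l2 (-0.085), Cdkn2a (0.029), Mki67 (-0.062) and Gpc3 (-0.15). With the mean intensity of the array as a covariate it turned for Cyp2e1 (0.024), Abcc4 (-0.13), Nr1i3 (0.0202), Nfe2l2 (-0.0041), Nr1h4 (-0.023), Mup3 (0.0033), Fasn (0.061), Cdkn2a (0.021) and Gpc3 (-0.051). With the Gapdh ratio as a covariate it turned for Cyp2b10 (-0.10), Cyp2e1 (0.013), Cyp7a1 (0.14), Nr1i3 (0.083), Ahr (0.0036), Nr1h4 (-0.024), Cdkn2a (0.083) and Gpc3 (-0.25). Without animals 4 and 25 it turned for Ces2a (0.03), Abcc4 (-0.013), Nr1i3 (0.0046), Nfe2l2 (-0.072), Cdkn2a (0.12), Mki67 (-0.26) and Gpc3 (-0.022). Leaving out single animals gave ranges across 0 for Cyp2b10 (-0.012 to 0.72), Cyp7a1 (-0.48 to 0.052), Ces2a (-0.081 to 0.0032), Nqo1 (-0.027 to 0.13), Abcc4 (-0.028 to 0.18), Nr1i2 (-0.14 to 0.022), Nr1i3 (-0.14 to 0.18), Ahr (-0.24 to 0.099), Nfe2l2 (-0.038 to 0.22), Nr1h4 (-0.0495 to 0.12), Fasn (-0.16 to 0.074), Ighm (-0.093 to 0.91), Col1a1 (-0.36 to 0.87), Cdkn2a (-0.19 to 0.057), Mki67 (-0.24 to 0.58), Gpc3 (-0.23 to 0.45) and Car3 (-0.0064 to 0.052). Why any of these values turned was not tested. Array brightness and the Gapdh ratio separate the 2 ages without overlap, 4 animals a group limit the precision, and of 18193 genes 9712 were above background on at least 4 of 16 arrays.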
